A study of Mus musculus with 23 samples.

Results

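The 32 genes described here encode glutamate and GABA receptor subunits, the proteins through which most synapses of the brain excite or inhibit the next cell. They were taken by symbol from a fixed list, 32 of 22310 named genes in the count table, and all 32 were among the 16209 genes that passed the filter on low counts and were tested. They comprise 4 AMPA, 6 NMDA, 5 kainate and 6 metabotropic glutamate receptor genes, 9 GABA-A genes and 2 GABA-B genes. Other genes of these families are not analysed here. The question was whether loss of microglia is accompanied by a shift in synaptic receptor transcripts. In edgeR none of the 32 genes passed in WT mice on PLX3397, against 1.52% of all genes tested, or on PLX5622, against 1.66%. None passed in edgeR in the other comparisons made, where between 0% and 1.09% of all genes did. DESeq2 called 2 of the 32 in G793A mice on PLX5622 against G793A controls.

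Bulk RNA sequencing of brain tissue was done in C57BL/6J mice that carried the Csf1R-G793A substitution or were wild type (WT). CSF1R is the receptor kinase that microglia, the resident macrophages of the brain, need for survival, and PLX5622 and PLX3397 are small molecules that inhibit it. Every mouse was on its diet for 14 days. The 6 groups were G793A mice on PLX5622 (1200 mg/kg of chow, 4 libraries), G793A mice on PLX3397 (290 mg/kg, 4 libraries), G793A mice on control chow (4 libraries), WT mice on PLX5622 (1200 mg/kg, 4 libraries), WT mice on PLX3397 (290 mg/kg, 4 libraries) and WT mice on control chow (3 libraries). The labels give no brain region, sex, age or number of G793A alleles. Nor do they tie each library to its own animal, and the p-values below therefore cover only the spread among these libraries. In bulk RNA, fewer cells of a type and less RNA per cell cannot be told apart.

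Glutamate opens AMPA, NMDA and kainate receptors, which are cation channels built from several subunits, and it acts more slowly through the metabotropic receptors, which couple to G proteins. GABA opens the GABA-A chloride channels and acts through the G protein-coupled GABA-B receptor. Neurons carry most of these receptors, and astrocytes and oligodendrocyte precursors carry some of them. Subunit composition sets how long a channel stays open, whether it passes calcium and whether it sits inside or outside the synapse.

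Total counts ran from 26.3 to 48.2 M per library. The 10 microglia markers, P2ry12, Csf1r and Aif1 among them, checked the groups. All 10 were lower in WT mice on PLX5622 than in WT controls (median log2 fold change −3.18), and all 10 were lower in WT mice on PLX3397 (median −2.23). Levels are in CPM, counts scaled to the library total of the tested genes after TMM adjustment. The summed level of the 10 markers was 37.9 to 81.3 CPM in WT mice on PLX5622 and 78.1 to 113 CPM in WT mice on PLX3397. In WT controls it was 366 to 390.4 CPM. None of the 10 passed in edgeR in G793A mice on either inhibitor against G793A controls. The medians were −0.18 on PLX5622 and −0.31 on PLX3397. All 10 values were below 0, from −0.44 to −0.13 on PLX5622 and from −0.40 to −0.13 on PLX3397. The sums were 266 to 330 CPM on PLX5622 and 276 to 328 CPM on PLX3397, against 312 to 390 CPM in G793A controls. Neurons were plainly present: the 7 pan-neuronal markers summed to between 6921 and 8248 CPM in every library. The 5 markers of oligodendrocyte precursors summed to 124 to 133 CPM in WT mice on PLX3397, against 158 to 172 CPM in WT controls, and to 90.7 to 137 CPM in G793A mice on PLX3397, against 153 to 162 CPM in G793A controls. Neither pair of groups overlapped. With PLX5622 the sums overlapped those of the controls, at 142 to 167 CPM in WT mice and 129.5 to 158 CPM in G793A mice. Several libraries stood apart. G793A control replicate 3 had the lowest sums of all libraries for pan-neuronal (6921 CPM) and inhibitory neuron markers (1030 CPM). Its astrocyte (2662 CPM), oligodendrocyte (6266 CPM) and choroid plexus sums (1148 CPM) were the highest. The excitatory neuron sum, 5175 CPM, was near the highest of 5193 CPM. The part of this make-up in the receptor values was not tested. The receptor genes were lowest in G793A control replicate 3 (mean deviation from their own means over all libraries −0.26 on the log2 scale, 25 of 32 genes below), followed by WT control replicate 1 (−0.10, 28 of 32 below) and G793A control replicate 4 (−0.09, 27 of 32 below). WT control replicate 3 had the highest thalamic marker sum of all libraries (478 CPM, against 258 and 279 CPM in the other WT controls). Its excitatory neuron sum was the lowest (3491 CPM, against 4490 and 4912 CPM there). The part of either in the receptor values was not tested. Cerebellar transcripts marked G793A PLX5622 replicate 2 and WT PLX5622 replicate 1. WT PLX5622 replicate 1 also held pituitary transcripts: its 4 pituitary markers summed to 101 CPM, against a median of 3.16 CPM over all libraries, and WT PLX5622 replicate 4 followed with 12.2 CPM. The neuronal activity gene Npas4 was over 5 times its median in WT PLX3397 replicate 1, G793A PLX3397 replicates 2 and 4 and G793A PLX5622 replicate 2.

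Receptor genes of one family are paralogs, and the deposited values are estimated counts that share out reads matching several transcripts, so the genes' likeness in sequence bears on every value below. The channel gate is among the most conserved stretches of an ionotropic receptor, and 14 of the 15 AMPA, NMDA and kainate genes hold its codons. The windows of 57 coding bases around the gate are shown for the AMPA and kainate genes, read 5′ to 3′ on the coding strand from GENCODE M21 transcripts (GRCm38). Capitals mark bases identical in all genes of the family.
Gria1: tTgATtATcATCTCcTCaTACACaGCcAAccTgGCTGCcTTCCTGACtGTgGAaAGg
Gria2: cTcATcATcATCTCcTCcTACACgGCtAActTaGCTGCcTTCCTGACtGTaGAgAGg
Gria3: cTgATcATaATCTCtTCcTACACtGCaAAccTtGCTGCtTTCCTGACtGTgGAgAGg
Gria4: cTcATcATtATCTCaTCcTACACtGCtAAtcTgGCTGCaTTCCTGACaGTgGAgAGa
Grik1: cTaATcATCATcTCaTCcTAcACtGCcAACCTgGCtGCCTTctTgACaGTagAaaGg
Grik2: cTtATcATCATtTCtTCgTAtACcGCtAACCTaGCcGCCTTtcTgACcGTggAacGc
Grik3: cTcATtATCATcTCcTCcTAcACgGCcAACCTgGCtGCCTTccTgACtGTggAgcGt
Grik4: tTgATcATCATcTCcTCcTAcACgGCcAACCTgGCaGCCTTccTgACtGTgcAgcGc
Grik5: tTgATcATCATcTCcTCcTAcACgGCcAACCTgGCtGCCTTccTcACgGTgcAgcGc
Here 41 of 57 bases were identical in all 4 AMPA genes and 37 of 57 in all 5 kainate genes. In the 5 NMDA genes that hold the codons 31 of 57 bases were identical. Pairs of genes can be more alike than the whole family: Grik4 and Grik5 shared an unbroken 35 bases from the start of the window. Over whole transcripts, at most 0.47% of the stretches of 31 bases in a receptor gene occurred in another of the 32 genes (Gria4), and in 16 of the 32 genes none did. Counting all genes of the annotation, 31 of the 32 shared under 2% of such stretches with any other gene. The exception was Grin2a, with 14.9%, nearly all of it in the predicted gene Gm7328, so its count is the one most open to reads placed elsewhere. The longest coding stretch shared by 2 of the genes measured 38 bases, in Grik3 and Grik5.

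Levels can be compared between genes only per length of transcript, as CPM per kilobase. Each gene was divided by the length of a single representative transcript, so the order of genes depends on that choice. Grin2b, with a mean of 622 CPM, was divided by 24.06 kb and ranked 15 of 32. Gabbr1, whose product binds GABA in the GABA-B receptor, had the highest level (165.9 ± 5.88 CPM per kb, SD, 23 libraries). Grin1, the subunit every NMDA receptor needs, followed with 97.2 ± 9.77 CPM per kb, and Gria1, an AMPA subunit abundant in hippocampus and cortex, had 95.2 ± 7.32 CPM per kb. Grin1 and Gria1 do not differ beyond their spread, and neither do the next 3 genes, Gabrb2 (60.4 ± 6.46), Gabbr2 (58.9 ± 5.29) and Gria2 (55.0 ± 4.74). The lowest levels were those of Grin2d, an NMDA subunit of interneurons and deep brain nuclei (4.00 ± 0.35), Gabrg3 (4.39 ± 0.44), Grik4 (4.41 ± 0.51) and Grik1 (4.45 ± 0.50 CPM per kb). Even the rarest was well counted: the lowest count of any member in any library was 348, for Grik1. Together the 32 genes took between 0.48% and 0.64% of the counts of a library (median 0.61%). The coefficient of variation of the level over the 23 libraries ran from 3.54% for Gabbr1 to 23.4% for Grm4.

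**Figure D1:**
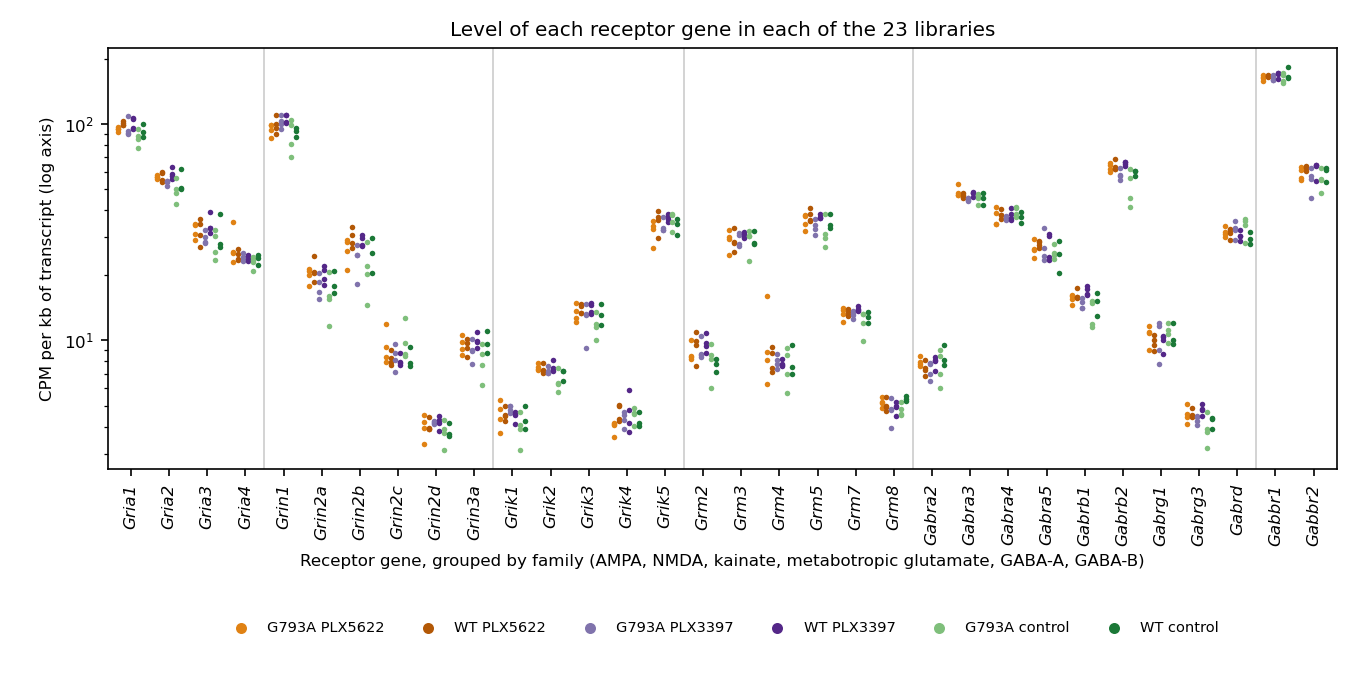
Level of each of the 32 receptor genes in each of the 23 libraries, in CPM per kilobase of transcript on a log axis, 1 point per library, with 6 groups side by side for each gene. Gabbr1 sits highest at a mean of 165.9 CPM per kb and Grin2d lowest at 4.00, and the 6 groups of a gene lie close together beside the distance between genes.

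The families' shares of the summed level per kilobase were close to each other in all groups of WT mice. AMPA genes made up 20.8 ± 0.055% of it in WT mice on PLX5622, 20.8 ± 0.55% in WT mice on PLX3397 and 20.5 ± 1.07% in WT controls (SD, n = 4, 4 and 3). NMDA genes made up 16.6 ± 0.50% on PLX5622, 16.9 ± 0.42% on PLX3397 and 15.97 ± 0.33% in WT controls. GABA-A genes made up 23.9 ± 0.46% on PLX5622, 23.8 ± 0.28% on PLX3397 and 23.8 ± 0.56% in WT controls. GABA-B genes, of which Gabbr1 led the list by level, made up 22.3 ± 0.62% on PLX5622, 22.1 ± 0.68% on PLX3397 and 23.4 ± 1.53% in WT controls. The mean NMDA share on either inhibitor differed from that of WT controls by more than the SD of the controls, and the other means differed by less; the shares were not tested.

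WT mice on an inhibitor were set against WT controls to ask whether receptor transcripts moved when microglia were lost. With PLX3397, 0 of the 32 genes passed in edgeR's quasi-likelihood test at an adjusted p under 0.05, against 1.52% of all genes tested, and with PLX5622 also 0 of 32 passed, against 1.66%. DESeq2 and limma-voom called 0 of the 32 in both comparisons as well. At an unadjusted p under 0.05 there were 3 genes with PLX3397 (Grin1, Grm2 and Gabrg3), all higher, against 8.21% of all genes in either direction and 3.21% higher. There was 1 with PLX5622 (Grm2, higher), against 8.43% in either direction and 3.14% higher. The 95% interval of the fold change stayed within 1.5-fold in either direction for 31 of the 32 genes in each comparison. The exceptions were Grm2 with PLX3397 and Grin2b with PLX5622, whose upper bounds were 0.60 and 0.61 on the log2 scale (1.5-fold is 0.58). Shifts smaller than 1.5-fold were excluded for fewer genes. The lowest bounds of any of the 32 genes were −0.50 with PLX3397 and −0.43 with PLX5622.

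Small positive values predominated. With PLX3397 26 of 32 log2 fold changes were above 0, against 52.8% of all genes tested, and their median was 0.10, against 0.0075 over all genes. With PLX5622 25 were above 0, against 52.8%, with a median of 0.07, against 0.0074. Both comparisons use the same 3 WT controls, so their resemblance is not independent. The size of these medians rested on single controls. Without WT control replicate 1, the lowest, they were 0.03 with PLX5622 and 0.06 with PLX3397. Without WT control replicate 2, the highest, they were 0.11 and 0.15, and 5 genes with PLX5622 and 7 with PLX3397 were at an unadjusted p under 0.05. With any 1 library left out, that count ran from 0 to 5 with PLX5622 and from 1 to 7 with PLX3397, and 0 genes passed. Without WT PLX5622 replicate 1, which held cerebellar and pituitary transcripts, the PLX5622 median was 0.10. Of the 5 precursor markers, 1 passed with PLX3397 (Matn4, −0.51 ± 0.13, adjusted p = 0.0340) and 0 with PLX5622, with medians of −0.30 and −0.01, and their part in the receptor values was not tested. Transcripts of the 32 genes were longer than most (median 5220 bases, against 3027 for the genes tested), and libraries differed in a trend along transcript length. The slope of a library's log2 deviation per doubling of length ran from −1.3e-05 to 0.040 in WT mice on PLX5622 and from 0.029 to 0.045 in WT mice on PLX3397. In WT controls it was −0.040 in replicate 1, below every WT inhibitor library, 0.045 in replicate 2 and 0.037 in replicate 3. With the trend along length and GC content removed from each library, the medians of the 32 genes were 0.08 with PLX5622 and 0.08 with PLX3397. Over all genes they were 0.023 and 0.022. In each comparison 4 of the 32 genes were then at an unadjusted p under 0.05, all higher. The shares of all genes at that p with a library left out or the trend removed are not given. Those counts therefore have no background to be read against.

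**Figure D2:**
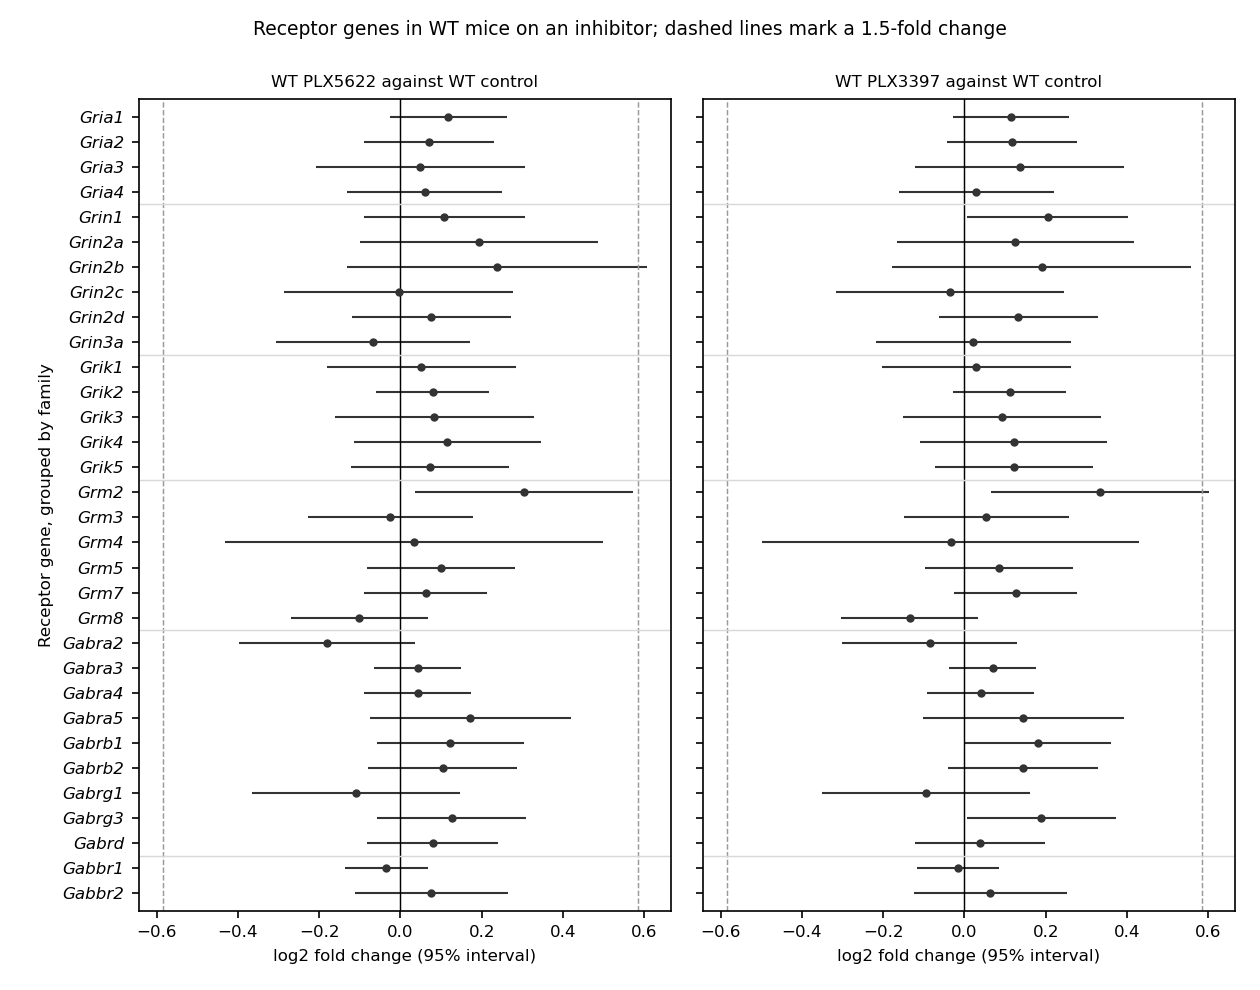
log2 fold change of each receptor gene in WT mice on PLX5622 (left) and on PLX3397 (right) against WT controls, with 95% intervals from edgeR; dashed lines mark 1.5-fold. Points lie between −0.18 and 0.30 on PLX5622 and between −0.14 and 0.33 on PLX3397, and only the intervals of Grin2b on PLX5622 and Grm2 on PLX3397 cross a dashed line.

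Among the AMPA genes, all 4 values were above 0 with both inhibitors (medians 0.07 with PLX5622 and 0.12 with PLX3397). Gria1 had 536, 536, 545 and 557 CPM in WT mice on PLX5622 and 511, 569.9, 514 and 574 CPM in WT mice on PLX3397, against 469.6, 537 and 496 CPM in WT controls. Its lowest library was a control, but each inhibitor group overlapped the controls. The log2 fold change of Gria1 was 0.12 ± 0.07 with PLX5622 (adjusted p = 0.739) and 0.11 ± 0.07 with PLX3397 (adjusted p = 0.727). Gria2, which blocks calcium entry once its transcript is edited, had 0.07 ± 0.08 with PLX5622 and 0.12 ± 0.08 with PLX3397. Gria3 had the widest spread of the family. It stood at 141, 188, 178 and 159.8 CPM on PLX5622 and 171, 203, 163 and 172 CPM on PLX3397, against 145, 199 and 140.1 CPM in WT controls. Control replicate 2 lay among the highest libraries and the other 2 controls among the lowest, and Gria3 had 0.05 ± 0.12 with PLX5622 and 0.14 ± 0.12 with PLX3397.

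Of the 6 NMDA genes 4 had values above 0 with PLX5622 and 5 with PLX3397. Grin1 stood at 380.2, 408, 466 and 424 CPM on PLX5622 and at 465, 466, 433 and 430.2 CPM on PLX3397, against 369.8, 404 and 393 CPM in WT controls. All 4 PLX3397 libraries lay above all 3 controls, while the PLX5622 libraries overlapped them. The log2 fold change of Grin1 was 0.11 ± 0.10 with PLX5622 (adjusted p = 0.878) and 0.20 ± 0.10 with PLX3397 (95% interval 0.01 to 0.40, adjusted p = 0.583). Grin2b, the subunit with slow kinetics that predominates early in development, had 641, 804, 735 and 680.4 CPM on PLX5622 and 657, 712, 661 and 736 CPM on PLX3397, against 493, 717 and 609 CPM in WT controls. The controls alone spanned most of the range, and the values were 0.24 ± 0.18 with PLX5622 (adjusted p = 0.839) and 0.19 ± 0.18 with PLX3397 (adjusted p = 0.852). Grin2a, the faster subunit of mature synapses, had 0.19 ± 0.14 with PLX5622 and 0.13 ± 0.14 with PLX3397. The balance of these subunits, as the log2 ratio of Grin2a to Grin2b CPM, was −1.22 ± 0.16 on PLX5622, −1.24 ± 0.06 on PLX3397 and −1.16 ± 0.11 in WT controls (SD, n = 4, 4 and 3), so the means differed by no more than the SD of the controls.

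All 5 kainate genes had values above 0 with both inhibitors, the highest 0.12. Grik5, a subunit that needs Grik1, Grik2 or Grik3 partners to form a channel, led the family by level. It had 112, 136, 149 and 139 CPM on PLX5622 and 132, 145, 137 and 141 CPM on PLX3397, against 130.4, 137 and 115 CPM in WT controls. The groups overlapped throughout, with 0.07 ± 0.09 for PLX5622 and 0.12 ± 0.09 for PLX3397. Grik3 varied most in the family and had 119.7, 129, 132 and 121 CPM on PLX5622 and 119, 134, 130.2 and 122 CPM on PLX3397, against 105, 132 and 118 CPM in WT controls. Its values of 0.08 ± 0.12 and 0.09 ± 0.12 were smaller than their errors.

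Among the metabotropic genes Grm2 had the highest value of the 32 with either inhibitor. It encodes a presynaptic receptor that curbs glutamate release. Grm2 stood at 35.9, 46.9, 51.8 and 44.7 CPM on PLX5622 and at 44.6, 51.1, 41.3 and 45.8 CPM on PLX3397, against 36.7, 38.6 and 33.6 CPM in WT controls. Every PLX3397 library lay above every control, whereas PLX5622 replicate 1 lay among the controls. The log2 fold change was 0.30 ± 0.13 with PLX5622 (95% interval 0.03 to 0.57, adjusted p = 0.491) and 0.33 ± 0.13 with PLX3397 (0.06 to 0.60, adjusted p = 0.424). The lowest adjusted p of Grm2 under any alternative was 0.0667, with PLX3397 when the compared groups were fitted alone. In G793A mice, whose microglia markers did not pass, Grm2 had 39.7, 38.5, 47.4 and 39.3 CPM on PLX5622, 40.5, 39.5, 40.9 and 49.6 CPM on PLX3397 and 40.2, 45.1, 28.4 and 38.5 CPM on control chow. The difference between the genotypes' responses was −0.19 ± 0.18 for PLX5622 and −0.17 ± 0.18 for PLX3397.

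Grm5, the postsynaptic receptor that signals through calcium stores, led the metabotropic genes by level. It had 285, 308, 329.7 and 291 CPM on PLX5622 and 298, 297, 297 and 310.4 CPM on PLX3397, against 265, 310.1 and 275 CPM in WT controls, which overlapped both groups. Its values were 0.10 ± 0.09 and 0.09 ± 0.09. Grm8, another presynaptic receptor, was the one gene of the 32 whose PLX3397 libraries all lay below the controls, at 19.2, 19.1, 20.1 and 17.2 CPM, against 20.1, 21.4 and 20.6 CPM in WT controls, the nearest of them apart by less than the rounding. Grm8 had −0.14 ± 0.08 with PLX3397 (adjusted p = 0.727) and −0.10 ± 0.08 with PLX5622 (adjusted p = 0.857). Grm4, the most variable of the 32 genes, had 40.5, 34.5, 42.9 and 32.9 CPM on PLX5622. It had 35.0, 37.7, 35.5 and 35.8 CPM on PLX3397, against 34.6, 32.1 and 43.7 CPM in WT controls. The groups overlapped, with 0.03 ± 0.22 for PLX5622 and −0.03 ± 0.22 for PLX3397. Grm3, found in astrocytes as well as neurons, had −0.02 ± 0.10 with PLX5622 and 0.05 ± 0.10 with PLX3397.

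Of the 9 GABA-A genes 7 had values above 0 with each inhibitor. Gabra2, an alpha subunit that helps form the GABA and benzodiazepine sites, had the lowest value of the 32 with PLX5622. It stood at 43.7, 47.5, 42.9 and 40.1 CPM on PLX5622 and at 42.3, 47.6, 48.9 and 47.2 CPM on PLX3397, against 45.0, 55.5 and 47.6 CPM in WT controls. The groups overlapped, with −0.18 ± 0.10 for PLX5622 (adjusted p = 0.727) and −0.09 ± 0.10 for PLX3397 (adjusted p = 0.900). Gabrg3, a scarce gamma subunit, had 43.5, 47.5, 44.3 and 43.5 CPM on PLX5622 and 49.8, 43.6, 46.4 and 46.8 CPM on PLX3397, against 37.9, 42.3 and 42.6 CPM in WT controls. Both inhibitor groups lay wholly above the controls, by little. Gabrg3 had 0.13 ± 0.09 with PLX5622 (adjusted p = 0.820) and 0.19 ± 0.09 with PLX3397 (95% interval 0.01 to 0.37, adjusted p = 0.583).

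Gabrb2, the beta subunit of the commonest GABA-A receptors and the highest of this family by level, had 247, 274, 248 and 252 CPM on PLX5622 and 267, 266, 261 and 256 CPM on PLX3397, against 228, 243 and 241 CPM in WT controls. Again both groups lay above the controls, with 0.10 ± 0.09 for PLX5622 (adjusted p = 0.871) and 0.14 ± 0.09 for PLX3397 (adjusted p = 0.732). Gabrg1, a gamma subunit also found in glia, varied most in the family. It had 50.6, 48.1, 45.4 and 42.7 CPM on PLX5622 and 49.8, 41.2, 49.4 and 48.1 CPM on PLX3397, against 47.95, 45.8 and 57.2 CPM in WT controls. The groups overlapped, and the values were −0.11 ± 0.12 and −0.10 ± 0.12. Gabra5, Gabra4 and Gabrd, subunits of receptors outside the synapse that carry tonic inhibition, had 0.17 ± 0.12, 0.04 ± 0.06 and 0.08 ± 0.08 with PLX5622 and 0.14 ± 0.12, 0.04 ± 0.06 and 0.04 ± 0.08 with PLX3397.

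The GABA-B receptor is a pair of different subunits, both needed. Gabbr1 stood at 883, 871, 878 and 865 CPM on PLX5622 and at 851, 898, 905 and 889 CPM on PLX3397, against 869, 859 and 958 CPM in WT controls. Its log2 fold change was −0.03 ± 0.05 with PLX5622 (95% interval −0.14 to 0.07) and −0.02 ± 0.05 with PLX3397 (−0.12 to 0.09), with the smallest error of the 32 genes. Gabbr2, the partner that couples to the G protein, had 349, 368, 362 and 359 CPM on PLX5622 and 314, 374, 367 and 371 CPM on PLX3397, against 311, 354 and 359 CPM in WT controls, with 0.08 ± 0.09 and 0.06 ± 0.09. The groups of both genes overlapped.

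Counting all 32, groups did not overlap and were higher for 5 genes with PLX3397 (Grin1, Grm2, Grm7, Gabrb2 and Gabrg3), against 4.94% of all genes tested. For 2 genes with PLX5622 they did not overlap and were higher (Gabrb2 and Gabrg3), against 3.68%. Lower without overlap was 1 gene with PLX3397 (Grm8), against 6.12%, and 0 with PLX5622, against 5.26%. The plot of all libraries shows how far single libraries of one group differ in many of these genes at once.

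**Figure D3:**
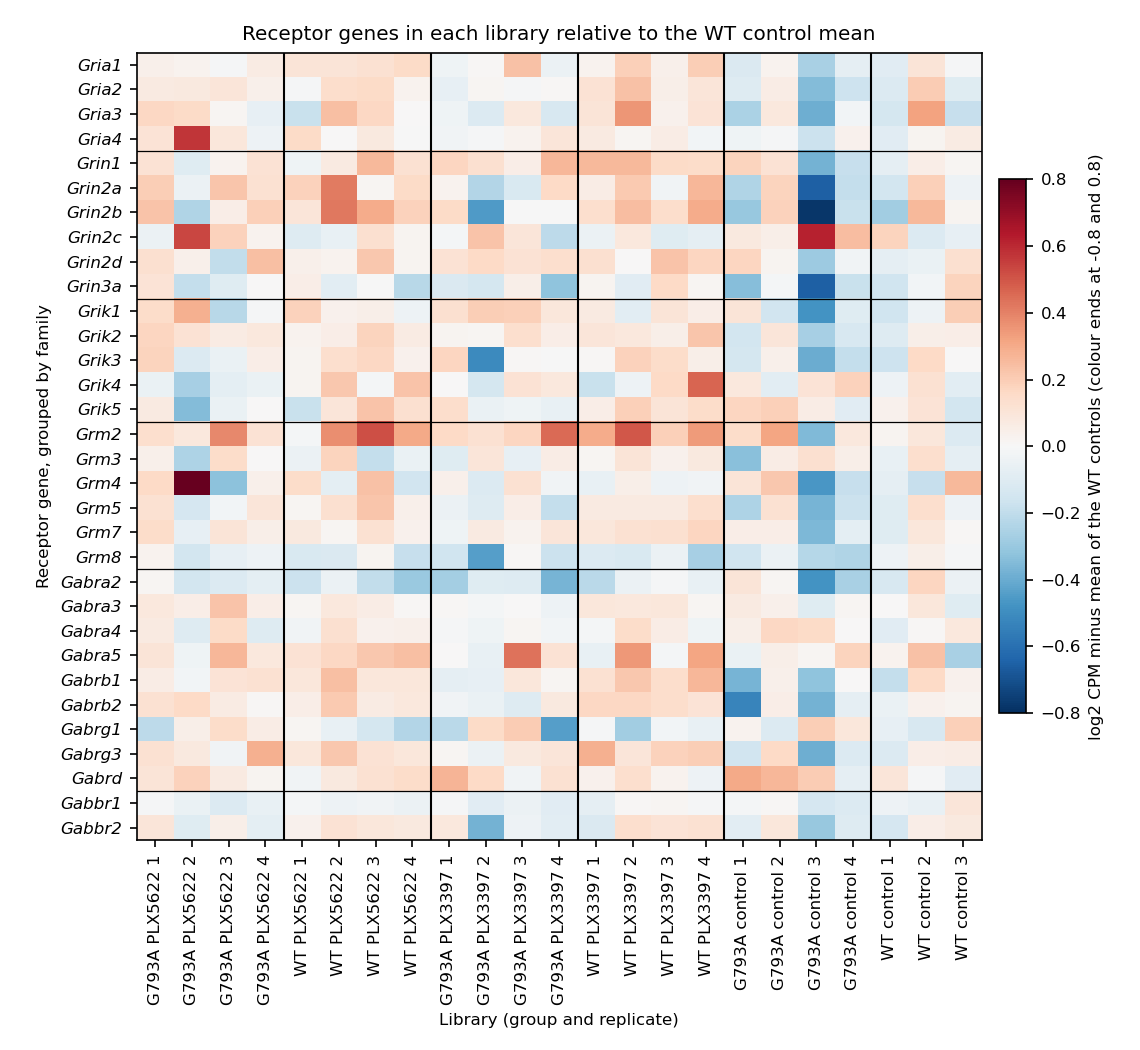
log2 CPM of each receptor gene in each library minus the mean of the WT controls; libraries run across by group and replicate, genes run down by family, red is higher and blue lower. G793A control replicate 3 is blue in most rows and G793A PLX5622 replicate 2 is deep red at Gria4, Grin2c and Grm4, while WT mice on either inhibitor show pale colours with Grm2 red in most of their libraries.

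G793A controls were set against WT controls to show what the substitution does without an inhibitor. Of the 32 genes 0 passed in edgeR, against 0% of all genes tested, and 0 in DESeq2 and limma-voom. At an unadjusted p under 0.05 there were 3, against 11.1% of all genes. Grin3a, an NMDA subunit that lowers calcium entry, had −0.28 ± 0.12 (adjusted p = 0.373). Gabrb2 had −0.21 ± 0.09 (adjusted p = 0.374), and Gabrd had 0.18 ± 0.08 (adjusted p = 0.388). Of the 32 values 9 were above 0, against 48.3% of all genes, and their median was −0.08, against −0.0063 over all genes. No gene was higher without overlap (background 2.71%). Only Grm8 was lower without overlap (background 2.91%), with 18.5, 20.1, 17.7 and 17.5 CPM in G793A controls, against 20.1, 21.4 and 20.6 CPM in WT controls.

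The G793A controls were also the group most unlike in its libraries. Gabrb2 had 164, 246, 182 and 225 CPM there, against 228, 243 and 241 CPM in WT controls, so replicates 1 and 3 stood far below replicate 2. Grin1 had 440.0, 421, 299.8 and 342 CPM in G793A controls and Grin2b 486, 682, 349 and 529 CPM. The length slope of these libraries ran from −0.14, in replicate 3, to 0.011, with a median of −0.056, against a median of 0.037 in WT controls. With the trend along length and GC content removed, the median of the 32 genes was −0.0047, against 0.011 over all genes, and 14 of 32 values were above 0. Without replicate 3 the median was −0.04. Without replicate 2, Gabrb2 passed at −0.32 (adjusted p = 0.0400), the 1 gene of the 32 that did, and 12 were at an unadjusted p under 0.05. Shares of all genes without replicate 2 are not given, so neither count has a background beside it.

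G793A mice on an inhibitor were set against G793A controls, a comparison in which 0 of 10 microglia markers passed. With PLX3397 0 of the 32 receptor genes passed in edgeR, against 0.00617% of all genes tested, and with PLX5622 0 of 32, against 0%. DESeq2 called 0 with PLX3397 and 2 with PLX5622, Gabrb2 (adjusted p = 0.0350) and Grik2 (adjusted p = 0.0492), and limma-voom called 0 in both. Shares of all genes called by these 2 tools are not given. At an unadjusted p under 0.05, edgeR gave 5 genes with PLX3397, all higher, against 6.02% of all genes in that direction. With PLX5622 it gave 10, all higher, against 8.43% in that direction. Of the 32 values 22 were above 0 with PLX3397 (51.0% of all genes) and 26 with PLX5622 (49.9%), with medians of 0.09 and 0.12. Of the 5 precursor markers 1 passed with PLX3397 (Pdgfra, −0.54 ± 0.08, adjusted p = 0.0068) and 0 with PLX5622, with medians of −0.35 and −0.06, and their part in the receptor values was not tested.

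The 5 genes with PLX3397 were Gria1, Grin1, Grik1, Grik2 and Gabrb2. Grik1, a kainate subunit of interneurons, had 0.29 ± 0.10 (adjusted p = 0.360), with 17.4, 18.2, 18.2 and 16.9 CPM on PLX3397, against 17.05, 14.3, 11.4 and 14.9 CPM in G793A controls. Grik2, the commonest kainate subunit of principal cells, had 0.16 ± 0.06 (adjusted p = 0.377), and Grin1 had 0.21 ± 0.09 (adjusted p = 0.392). In none of the 32 genes did the PLX3397 libraries all lie above the controls (background 1.92%) or all below them (2.12%).

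The 10 genes with PLX5622 were Gria1, Gria2, Gria4, Grin2a, Grin3a, Grik2, Grm5, Gabrb1, Gabrb2 and Gabrg3. Gabrb2 had the smallest adjusted p of any receptor gene in any comparison, 0.152, at 0.30 ± 0.08. It stood at 258, 264, 248 and 239 CPM on PLX5622, against 164, 246, 182 and 225 CPM in G793A controls, where 1 control overlapped the treated libraries. Grik2 had 73.9, 71.3, 68.8 and 69.8 CPM on PLX5622, against 59.4, 70.4, 54.5 and 60.1 CPM in G793A controls, a value of 0.21 ± 0.06 (adjusted p = 0.154). Gria2 had 590.1, 592, 600.4 and 576 CPM, against 521, 583, 441 and 498 CPM in G793A controls, a value of 0.21 ± 0.07 (adjusted p = 0.174). In these 3 genes G793A control replicate 2 reached the level of the PLX5622 libraries and the other 3 controls lay below them. No gene was higher without overlap (background 2.55%) or lower without overlap (2.83%). The intervals of Grin2a, Grin2b and Grm4 reached beyond 1.5-fold, and the other 29 did not.

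These values rested on the control libraries. Without G793A control replicate 2, the highest, 7 genes passed with PLX5622: Gria2, Grin2a, Grik2, Grm5, Gabrb1, Gabrb2 and Gabrg3, while over all genes 980 passed where 0 had. With PLX3397 14 genes were then at an unadjusted p under 0.05 and 0 passed, with a median of 0.17. Without replicate 3, the lowest, 4 were left at an unadjusted p under 0.05 with PLX5622 and 0 with PLX3397, and the medians were 0.07 and 0.03. The length slopes of the PLX5622 libraries ran from −0.011 to 0.031, against −0.14 to 0.011 in G793A controls. With the trend along length and GC content removed, 4 genes were at an unadjusted p under 0.05 with PLX5622, 2 of them higher, and the median was 0.07. With PLX3397 the median was then 0.03. Apart from the 980 genes above, counts over all genes under these settings are not given. The counts at an unadjusted p therefore have no background to be read against.

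**Figure D4:**
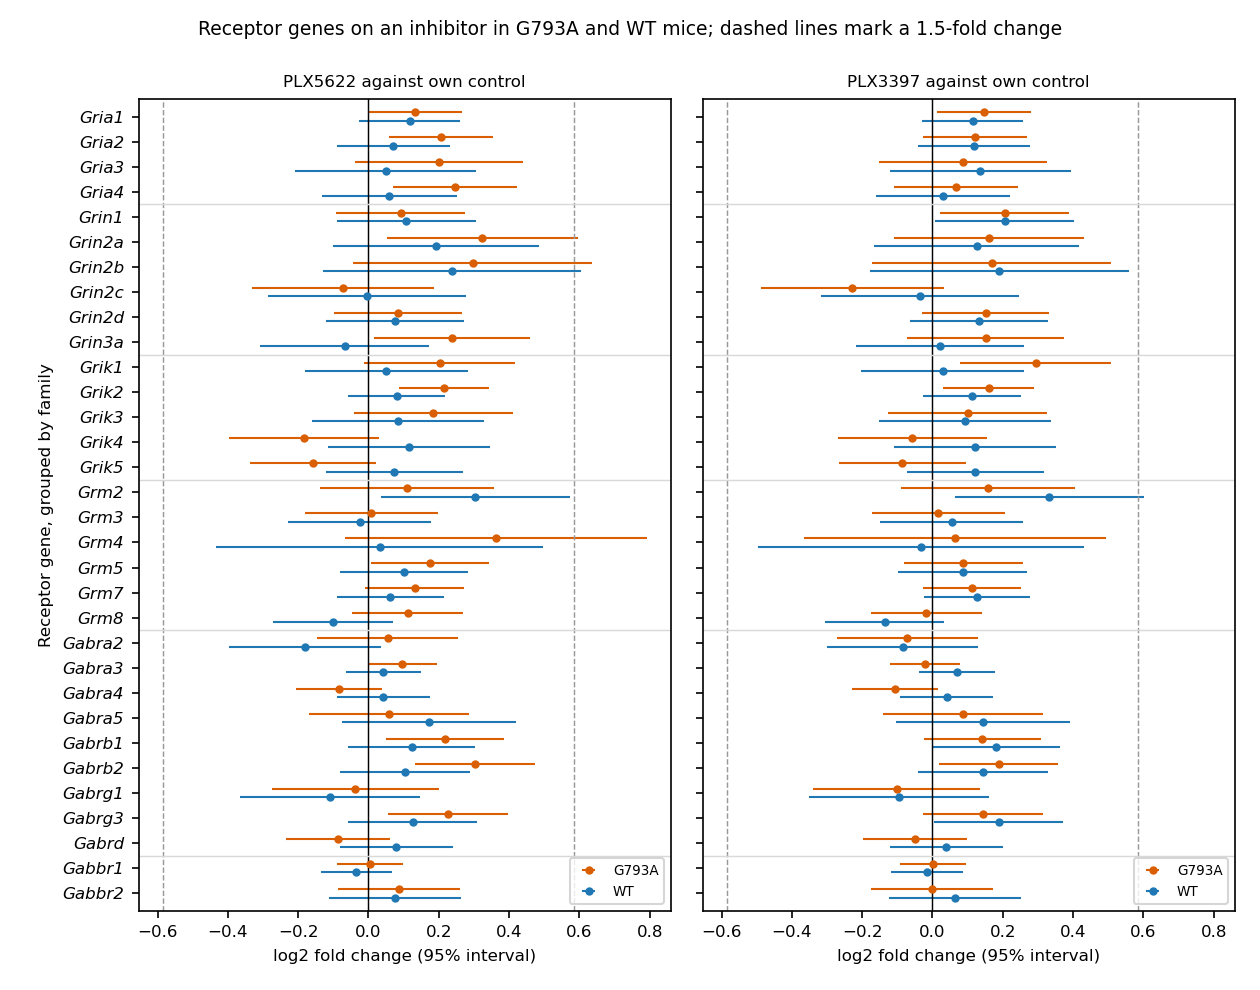
log2 fold change of each receptor gene on PLX5622 (left) and PLX3397 (right) against controls of the same genotype, G793A in orange above WT in blue, with 95% intervals from edgeR and dashed lines at 1.5-fold. Most pairs of intervals overlap over most of their length, and the medians are 0.12 in G793A and 0.07 in WT mice on PLX5622 and 0.09 and 0.10 on PLX3397.

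A test of the difference between the genotypes' responses, G793A minus WT, gave 0 of 32 genes for PLX3397, against 0.555% of all genes tested, and 0 of 32 for PLX5622, against 0.808%. In the same tests all 10 microglia markers passed for both inhibitors. No receptor gene was at an unadjusted p under 0.05 in edgeR for either inhibitor, against 4.12% of all genes for PLX3397 and 7.44% for PLX5622, and DESeq2 and limma-voom called 0. The median difference was −0.003 for PLX3397 and 0.07 for PLX5622. With 1 library left out these medians ran from −0.07 to 0.05 and from 0.02 to 0.13, the highest both without G793A control replicate 2. There 6 genes for PLX5622 were at an unadjusted p under 0.05 and 0 passed, with no share of all genes given for that setting. The smallest p-values for PLX5622 belonged to Grik4 (−0.30 ± 0.15, adjusted p = 0.674), Grin3a (0.31 ± 0.16, adjusted p = 0.674) and Grm8 (0.21 ± 0.11, adjusted p = 0.683). For PLX3397 they belonged to Grik1 (0.26 ± 0.15), Gabra4 (−0.15 ± 0.09) and Grik5 (−0.21 ± 0.13), each at an adjusted p of 1.00. Such differences carry wider errors than a single comparison, and intervals ran from −0.61 to 0.96 for PLX5622, so differences of 1.5-fold could not be bounded for Grin3a, Grik4 and Grm4.

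The genotypes on the same inhibitor share no library. With PLX3397, G793A against WT gave 0 of 32 genes, against 0.938% of all genes tested, and 2 at an unadjusted p under 0.05, against 7.95%. With 1 library left out the count of 2 ran from 0 to 6, with no shares of all genes given. It was 0 without G793A PLX3397 replicate 2 or WT PLX3397 replicate 4, and 6 without G793A control replicate 3. With PLX5622, G793A against WT gave 0 of 32, against 1.09%, and 1 at an unadjusted p under 0.05, against 5.53%. DESeq2 and limma-voom called 0 with both inhibitors. Gabrb1, a beta subunit, had 194, 194, 217 and 206 CPM in G793A mice on PLX3397, against 222, 237, 225 and 245 CPM in WT mice on PLX3397, which did not overlap (−0.20 ± 0.08, adjusted p = 0.536). Gabrb2 had −0.17 ± 0.08 (adjusted p = 0.628), and Gria2 had −0.14 ± 0.07 (adjusted p = 0.654). Lower without overlap in G793A mice on PLX3397 were 5 genes (Gria2, Grm5, Gabra3, Gabrb1 and Gabrb2), against 3.55% of all genes, and none was higher without overlap (3.78%). Of the 32 values 5 were above 0, against 50.3%. With the length and GC trend removed 8 of 32 were above 0, and the median was −0.07, against −0.08 without that step.

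On PLX5622, Grik4, a kainate subunit that depends on partner subunits, had 24.3, 21.0, 23.9 and 24.3 CPM in G793A mice, against 25.6, 29.3, 24.96 and 29.5 CPM in WT mice, a value of −0.22 ± 0.10 (adjusted p = 0.848). Grik5 had −0.15 ± 0.09 and Gria4 had 0.14 ± 0.09, both at an adjusted p of 0.993. Groups were lower without overlap for Gria1 and Grik4, against 1.36% of all genes, and for none were they higher (2.49%). The median of the 32 genes was −0.0121, against −0.0046 over all genes, and it was 0.0065 without G793A PLX5622 replicate 4 and 0.0023 without WT PLX5622 replicate 2.

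G793A mice on an inhibitor were also compared with WT controls. With PLX3397 0 of 32 genes passed, against 0.00617% of all genes tested, and 1 was at an unadjusted p under 0.05 (Grm8, −0.18 ± 0.08, adjusted p = 0.646), against 7.24%. The next were Gabra2 (−0.21 ± 0.10, adjusted p = 0.699) and Grm2 (0.23 ± 0.13, adjusted p = 0.756), and the median was −0.0080, with 13 of 32 values above 0 (51.6% of all genes). Grm2 was higher without overlap (background 3.51%), and no gene was lower without overlap (4.11%). With PLX5622 0 of 32 passed, against 0%, and 1 was at an unadjusted p under 0.05 (Gria4, 0.20 ± 0.09, adjusted p = 0.718), against 6.76%. Gabra3 had 0.10 ± 0.05 (adjusted p = 0.747) and Grik2 had 0.11 ± 0.07 (adjusted p = 0.797), and the median was 0.05, with 24 of 32 values above 0 (50.2% of all genes). Grik2 was higher without overlap (background 3.39%), and no gene was lower without overlap (3.86%). Both medians turned with 1 WT control left out: that for PLX3397 was 0.06 without replicate 2, and that for PLX5622 was −0.02 without replicate 1. DESeq2 and limma-voom called 0 in both.

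The inhibitors were fed at different doses, 1200 mg/kg of PLX5622 and 290 mg/kg of PLX3397, so the diets as fed are set side by side. In WT mice the values of PLX5622 over PLX3397 ran from −0.10 to 0.07 and all 32 intervals lay within 1.5-fold. None of the 32 passed in edgeR, DESeq2 or limma-voom, against 0% of all genes in edgeR, and 0 were at an unadjusted p under 0.05, against 4.10%. The smallest p-values were those of Grin1 (−0.10 ± 0.09), Gabra2 (−0.10 ± 0.10) and Grm7 (−0.06 ± 0.07), each at an adjusted p of 1.00. In G793A mice 0 passed, against 0.00617%, and 2 were at an unadjusted p under 0.05, against 6.85%. These were Gabra3 (0.12 ± 0.05, adjusted p = 0.687) and Gria4 (0.18 ± 0.09, adjusted p = 0.724), followed by Grm8 (0.13 ± 0.08, adjusted p = 0.740). DESeq2 and limma-voom called 0. Gria2 and Gabra3 were higher without overlap in G793A mice on PLX5622, against 2.01% of all genes.

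Several of these values for Gria4 rested on a single library, which was also the highest for Grm4. For Grm4 no values with libraries left out are given. Grm4 encodes the presynaptic receptor of parallel fibres, Gria4 is abundant in cerebellum, and Grin2c is the NMDA subunit of mature cerebellar granule cells. G793A PLX5622 replicate 2 held 220.5 CPM of Cbln3, a gene of cerebellar granule cells, against a median of 1.13 CPM over all libraries. In that group Grm4 had 40.8, 73.5, 29.0 and 37.5 CPM, against 39.3, 42.4, 26.4 and 32.1 CPM in G793A controls. Gria4 had 137, 188, 135 and 123 CPM, against 124, 126, 112 and 129.7 CPM in G793A controls, and Grin2c had 38.9, 58.4, 45.7 and 41.0 CPM, against 42.5, 41.6, 61.8 and 47.8 CPM. The high library was replicate 2 each time in the PLX5622 group, and for Grin2c a G793A control library with 1.02 CPM of Cbln3 was higher still. The 6 cerebellar markers summed to 881 CPM in that library and to between 75.6 and 232 CPM in the others. Gabrd had 57.8 to 64.8 CPM in G793A mice on PLX5622, against 54.1 to 70.1 CPM in G793A controls. G793A PLX5622 replicate 2 was also among the libraries high in Npas4. The part of the cerebellar markers and of Npas4 in these values was not tested beyond leaving libraries out. Without the 2 libraries high in Cbln3, Gria4 had 0.05 in G793A mice on PLX5622 against WT controls, 0.03 against WT mice on PLX5622 and 0.03 against G793A mice on PLX3397. WT PLX5622 replicate 1, with 30.8 CPM of Cbln3, had 40.5 CPM of Grm4 and 141 CPM of Gria4, inside and just above the range of its group.

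**Figure D5:**
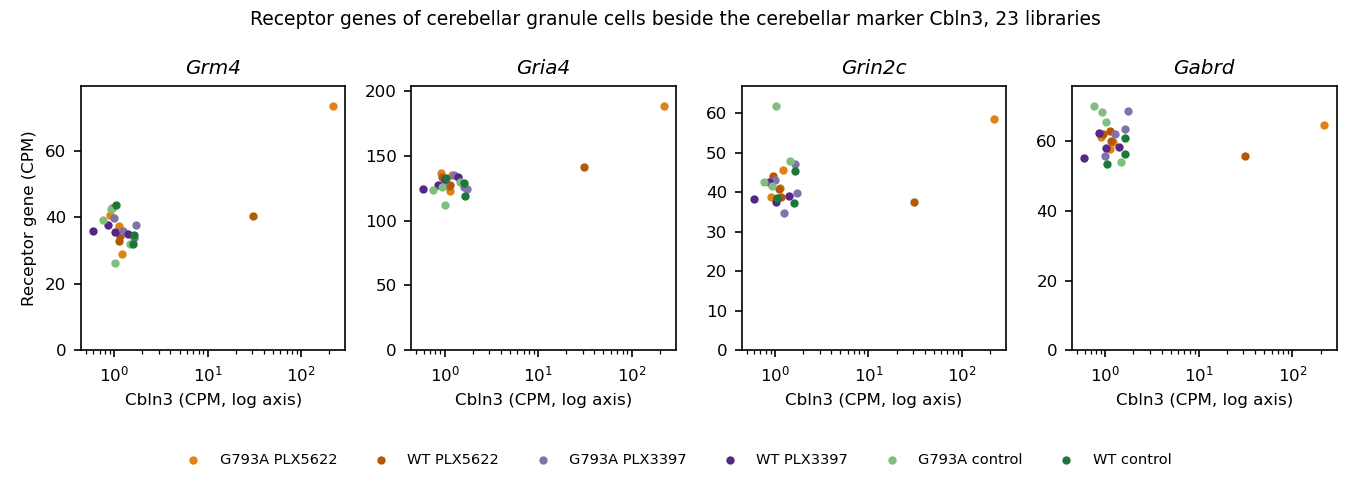
CPM of Grm4, Gria4, Grin2c and Gabrd (panels) in each of the 23 libraries against CPM of the cerebellar marker Cbln3 on a log axis, coloured by group. The library at 220.5 CPM of Cbln3, G793A PLX5622 replicate 2, is the highest for Grm4 (73.5 CPM) and Gria4 (188 CPM) but not for Grin2c or Gabrd.

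Receptors work with auxiliary subunits, scaffolds and the enzymes and transporters of their transmitters, and 51 such genes were listed: 14 auxiliary subunits of glutamate receptors, 4 of GABA-B receptors, 19 postsynaptic scaffold proteins and 14 genes of glutamate and GABA synthesis and transport. All 51 were tested and 0 passed in edgeR in any of the 13 comparisons, the only tool run on them. With PLX3397 in WT mice 4 were at an unadjusted p under 0.05, against 8.21% of all genes, and the median was 0.05. They were the AMPA receptor auxiliary subunits Cacng8 (0.22 ± 0.10) and Cnih3 (0.20 ± 0.09), the receptor partner Shisa7 (0.26 ± 0.11) and the scaffold gene Shank1 (0.21 ± 0.10). With PLX5622 in WT mice there were 6, against 8.43%, with a median of 0.04. Among them were Cacng8 (0.23 ± 0.10), Neto1, which joins kainate receptors (0.16 ± 0.07), and the GABA-B receptor partner Kctd16 (0.34 ± 0.14). The others were Kctd12b (−0.30 ± 0.12), Nlgn1, a synaptic adhesion gene (0.17 ± 0.08), and the scaffold gene Homer1 (−0.35 ± 0.16), whose short form follows neuronal activity. In G793A mice on PLX5622 against their controls the scaffold gene Shank3 had the smallest adjusted p of the 51 (−0.32 ± 0.08, adjusted p = 0.148).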

How the data were processed

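Expected counts per gene, estimated rather than whole (45.3% of values were not whole), were deposited for 23 mouse brain libraries. The authors also deposited variance-stabilised values on a log2 scale, used here only as an alternative. The submitters' processing notes name kallisto 0.46.1, the build GRCm39, FastQC 0.11.9 and DESeq2 1.26.0. The step from transcripts to genes was not stated in the sources used here. Kallisto-type estimation can move reads between similar genes, which is why shared sequence was measured.

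Counts were rounded, and 1 entry without a gene name (0.0083% to 0.015% of counts) was left out. Of 22310 named genes, 16209 passed edgeR's filterByExpr (minimum count 10, minimum total 15). A quasi-likelihood model with TMM scaling and 6 groups was fitted over all 23 libraries (R 4.3.3, edgeR 4.0.16, limma 3.58.1, DESeq2 1.42.0; figures in Python 3.11.15 with matplotlib 3.10.9). Tests were two-sided, with Benjamini-Hochberg adjustment over all 16209 genes, within each of 13 comparisons, and a threshold of 0.05. The error after each log2 fold change is its standard error, taken as the log2 fold change divided by the square root of F, and intervals are at 95%. edgeR estimated a common biological variation of 9.98% (coefficient).

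Groups came from the sample labels. No 2 libraries of a group agreed within counting noise: chi-square per degree of freedom was 5.93 to 74.4. Replicate numbers recur in every group, but deviations of same-numbered libraries did not go together, so the numbers did not pair libraries. The members and the lists were chosen with earlier results of these data known. Genes named were members past the threshold and the 3 with the smallest p in each comparison. Values per library are given for those in the WT inhibitor comparisons and for the highest and most variable gene of each family. Other genes given in full were chosen after their values were seen. Lengths, GC content and sequences are from a single GENCODE M21 transcript (GRCm38) per gene, matched for 32 of 32 members and 98.0% of genes tested. No coordinates are given because that annotation is of another build. Alternatives were other scalings, filters, fits, tools and covariates, and leaving out libraries.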

Additional observations from a re-analysis of the deposited data

Results flagged for a closer look

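In 10 pairs of a receptor gene and a group, of 160 examined, 1 library of 4 stood far from the other 3, beyond Dixon's 95% critical value. Chance marks about 1 pair in 20. Among them were 3 pairs in WT mice on PLX3397: Grm5 was high in replicate 4 (310.4 CPM, the others 297 to 298), Gabra3 was low in replicate 4 (168 CPM, the others 176 to 177) and Gabbr2 was low in replicate 1 (314 CPM, the others 367 to 374). In WT mice on PLX5622, Grin2d was high in replicate 3 (24.0 CPM, the others 21.1 to 21.3) and Gabrb1 was high in replicate 2 (241 CPM, the others all 217).

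In G793A mice on PLX5622, Grik4 was low in replicate 2 (21.0 CPM, the others 23.9 to 24.3), Grm2 was high in replicate 3 (47.4 CPM, the others 38.5 to 39.7) and Gabra3 was high in replicate 3 (194 CPM, the others 172 to 175). In G793A mice on PLX3397, Grik5 was high in replicate 1 (140.1 CPM, the others 122 to 124) and Grm2 was high in replicate 4 (49.6 CPM, the others 39.5 to 40.9). Grm2 and Gabra3 were marked in 2 groups each.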

How the results depend on the processing

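Under 36 alternatives, 23 of which left out 1 library, 468 counts of receptor genes passing were made, and 3 of them were not 0. DESeq2 called 2 genes for G793A mice on PLX5622 against G793A controls, with the share of all genes not given. Without G793A control replicate 2 there were 7 in that comparison and 1 for G793A controls against WT controls, so counts with 1 library left out ran from 0 to 7 and from 0 to 1 there, and from 0 to 0 in the other comparisons; the cause was not tested. Of 1404 values of named genes, 2 turned in sign: Gria4 in G793A against WT mice on PLX5622 was −0.0052 without the libraries high in Npas4 and −0.0015 without G793A PLX5622 replicate 2, a library both settings leave out, and reached 0.22 with another library left out. Median log2 fold changes of the 32 genes moved by more than 0.0665, the SD between replicates, in 7 cases.

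With the replicate number as a block, 0 genes passed in each of the 13 comparisons. The numbers were not taken as a pairing: over 55 same-numbered pairs the median correlation of deviations was 0.0055, against 0.0015 over 165 other pairs, and 4 of 23 libraries correlated best with their own number. The alternatives without libraries high in Cbln3 or Npas4, and those with the length and GC trend removed, gave 0 genes throughout. Groups held 3 or 4 libraries and counts were 348 or more. How far the spread between libraries and the depth each set the width of the intervals was not tested.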
